A study of Rattus norvegicus with 8 samples.

Results

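The 6 gene families described here encode enzymes that move hydrogen to or from aldehydes, ketones and alcohols: the aldehyde dehydrogenases (Aldh), alcohol dehydrogenases (Adh), aldo-keto reductases (Akr), the short-chain dehydrogenases of the Dhrs and Rdh series, and the hydroxysteroid dehydrogenases (Hsd). Members were all array probes whose transcript accession belongs to a gene with such a symbol, leaving out Hsd11b2 and Hsd17b4. This gave 78 genes on 89 probes, of 30367 probes on the array. A total of 59 genes were well above background on enough arrays to be tested, among 21416 genes or unnamed transcripts tested in all. The arrays carried total RNA of kidneys from male rats of the SD strain, 10 weeks old. The 4 samples labelled APL came from rats given 150 mg/kg of that compound for 4 weeks, and the 4 Control samples from rats given 0.5% methylcellulose, a vehicle, for 4 weeks. APL is read as allopurinol, an inhibitor of xanthine oxidase, because the series title names that drug as the agent of a renal fibrosis model. Both groups share strain, sex, age and duration. The labels do not state that the samples of a group came from separate animals, so the p-values measure the spread between these samples, which may be technical. The title speaks of renal tubules and the tissue label of kidney.

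Aldehyde dehydrogenases oxidise aldehydes to acids, among them aldehydes left by amino acid breakdown and retinaldehyde, from which retinoic acid is made. Alcohol dehydrogenases and some retinol dehydrogenases work one step earlier and form the aldehyde. Other retinol dehydrogenases and many aldo-keto reductases and Dhrs enzymes run the opposite way and reduce carbonyl groups. Hydroxysteroid dehydrogenases switch steroid hormones between active and inactive forms, and some take part in the breakdown of branched amino acids and lipids. In the kidney much of this machinery sits in the proximal tubule, which handles filtered and secreted metabolites.

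Values are given as relative signal, the processed signal of a probe divided by the 75th percentile of its array. Levels are set side by side between arrays for 1 probe and never between probes. The 75th percentile itself was 455 ± 53 intensity units on APL arrays and 291 ± 18 on Control arrays (SD, n = 4 each), a ratio of 1.56 (exact two-sided permutation p = 0.0286, the smallest that 70 splits allow). Probes well above background made up 80.7% ± 0.845 on APL arrays and 75% ± 1.53 on Control arrays (SD, n = 4 each, exact permutation p = 0.0286). On the second principal component, which held 12.5% of the variance, Control replicate 3 lay at -126 and the other Control arrays between 30.4 and 73.5. Each of 2 slides held 2 arrays of each group. With 4 arrays per group, precision is limited by their number.

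Lower calls outnumbered higher calls among the members, and 10 of the 12 tested aldo-keto reductases were among the lower calls. Of the 59 tested members, 30 were called lower and 6 higher at an adjusted p under 0.05 (limma, Benjamini-Hochberg over all features), and 23 were not called. Among all features tested, 11.5% were called lower and 11.9% higher. The share of members called lower was 50.8%, and the share called higher, 10.2%, was near that background. Some called members passed the detection filter through the group where they were higher. Adh6, Akr1b10 and Dhrs7l1 were well above background on 1 APL array and 4 Control arrays, and Aldh1a2 on 4 and 1. Among the 51 members well above background on all 8 arrays, 25 were called lower and 5 higher. The median log2 fold change of the members was -1.41, against -0.03 over all features. In 29 members all APL arrays lay below all Control arrays, and in 7 they lay above, against 15.9% and 14% of all features. Of the 30 called lower, 22 were lower by at least 4-fold and 10 by at least 16-fold. Among all 21416 features tested, 894 and 281 were called lower by as much. Of the 10, Dhrs7l1, Akr1b10 and Hsd17b14 were near background in APL. With normexp and the 75th percentile, the members still lower by at least 16-fold were Akr7a3 (-6.08), Dhrs7l1 (-5.31) and Akr1c13 (-5.03). Within slides the median was -1.3 and -1.6, and all 36 called members had the same sign on both. Without scaling between arrays, which shifts the median of all features to 0.60, 10 members were called higher and 25 lower. The higher calls were then 28.6% of member calls, against 16.7% with the scaling, and 83.7% of the calls over all features, against 50.8%.

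By family, 10 of 12 Akr genes were called lower and 1 higher, with a median log2 fold change of -3.10. Of 4 Adh genes, 3 were lower and 0 higher, with a median of -3.64. Of 16 Aldh genes, 9 were lower and 2 higher, with a median of -1.56. Of 12 Hsd genes, 4 were lower and 1 higher (median -0.89). The Dhrs genes had 2 of 8 lower and 1 higher (median -0.60), and the Rdh genes 2 of 7 lower and 1 higher (median -0.33). The medians of the last 2 families turned positive, to 0.10 and 0.38, with normexp and the 75th percentile and, to 0.04 and 0.30, without scaling, where the median of all features was 0.36 and 0.60. Those of the other 4 families stayed negative under all alternatives run, but their order did not hold: with normexp and percentile scaling the Adh median was -0.95, with 1 gene called lower, and the Aldh median -1.63. The count of Akr genes called lower fell as well. Akr1b10, Akr1b8 and Akr1c19 lost their calls with normexp and percentile scaling, and Akr1b8 and Akr1c19 without scaling. No test over a family was made, since the members were chosen with results of these data known.

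**Figure D1:**
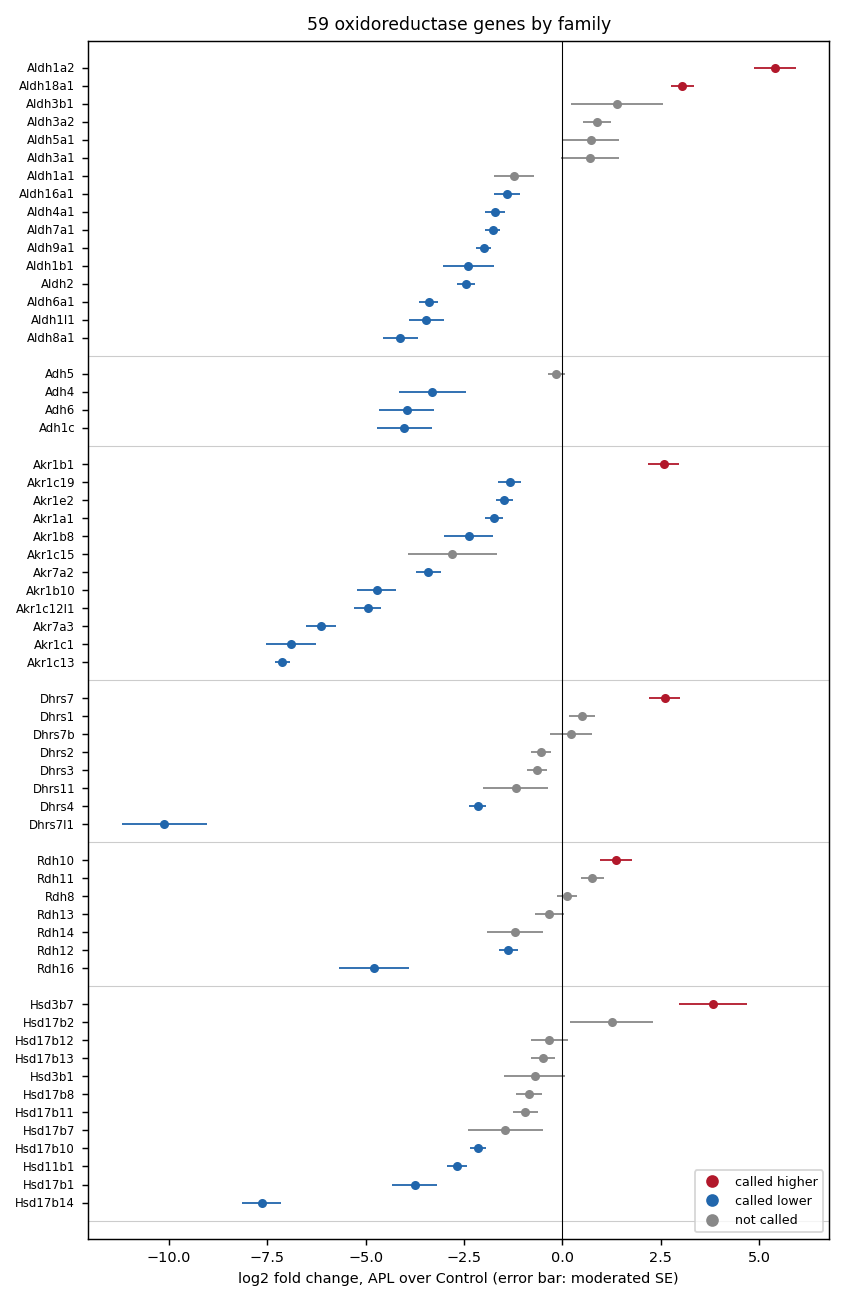
Log2 fold change of each tested member, APL over Control (x axis), with the moderated standard error as bar (4 arrays per group); genes run down the page by family and by fold change. Red points are called higher, blue points called lower and grey points not called; 10 of the 12 Akr genes are blue, and each family except Adh has at least 1 red point.

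Markers of some kidney cell types differed between the groups as well. The shares called over all features were 11.5% lower and 11.9% higher. Of 12 proximal tubule markers, 10 were called lower and 1, the glucose transporter Slc5a2, higher. Their summed relative signal ran from 50.9 to 73.1 on APL arrays and from 589 to 659 on Control arrays. That of 5 endothelial markers, 4 of them lower, ran from 0.492 to 0.835 on APL arrays and from 5.05 to 7.32 on Control arrays, although 1 of the 5 was lower after normexp correction with percentile scaling. For 7 tubular injury markers, 5 of them higher, it ran from 101 to 151 on APL arrays and from 1.11 to 2.66 on Control arrays. For 7 tested fibroblast markers, 2 higher and 1 lower, it ran from 29.9 to 93.2 on APL arrays and from 14.5 to 18.0 on Control arrays, while the fibroblast marker Postn was not above background often enough to be tested. Most of that sum on APL arrays came from the 2 higher markers, Col1a1 (10.8 to 27.4) and Col3a1 (16.5 to 57.5). Pdgfra was lower, and Acta2, Col1a2, Dcn and Pdgfrb were not called. Of 7 distal and collecting duct markers 1 was higher and 0 lower, of 4 thick limb markers 2 were lower, of 4 podocyte markers 1 was higher and 1 lower, and of 5 macrophage markers 2 were higher. Without a detection filter 0 thick limb markers were lower and 0 podocyte markers higher. After normexp correction with percentile scaling, and in the replicate block, 0 distal and collecting duct markers were called. None of 4 tested adrenal cortex markers was called; Cyp11a1 and Star, which define steroid-making cells, did not pass the filter, and neither did Alb, Apoa1, Cps1 and Tat of hepatocytes. Fewer cells of a type and less RNA per cell cannot be told apart in whole tissue, and the part of cell make-up in the results below was not tested.

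The 6 members called higher were 10.2% of those tested, near the 11.9% of all features. They came from 5 families and include a pair of successive enzymes of retinoic acid synthesis. Aldh1a2, which oxidises retinaldehyde to retinoic acid, had the largest log2 fold change among the members at this scaling, while Hsd3b7 was above it with both normexp scalings. Its relative signal was 0.282, 0.438, 0.38 and 0.643 in APL kidneys, against 0.005, 0.0209, 0.0166 and 0.00553 in Control kidneys. Every APL value was above every Control value, and the probe was well above background on 4 APL arrays and 1 Control array, with 1 Control value at the floor of 0.005. The log2 fold change was 5.40 ± 0.53 (SE, adjusted p = 0.00036), and 5.10 and 5.69 within the slides. It shrank to 1.77 and 1.28 with normexp under the 75th percentile and quantile scalings, and stayed called there.

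Rdh10, which oxidises retinol to the retinaldehyde that Aldh1a2 uses, had values of 0.983, 1.96, 1.83 and 1.34 in APL kidneys, against 0.519, 0.29, 0.754 and 0.941 in Control kidneys. The groups did not overlap, although the lowest APL value stood close to the highest Control value. The log2 fold change was 1.37 ± 0.41 (adjusted p = 0.0455). This call was lost without any 1 of APL replicates 2, 3 or 4 or Control replicates 1, 2 or 3, with normexp and the 75th percentile, without a detection filter and in the replicate block, with adjusted p up to 0.125.

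Aldh18a1 makes pyrroline-5-carboxylate from glutamate, the start of proline and ornithine synthesis. Its values were 0.563, 0.293, 0.405 and 0.537 in APL kidneys, against 0.057, 0.07, 0.0396 and 0.0489 in Control kidneys, with no overlap. The log2 fold change was 3.05 ± 0.29 (adjusted p = 0.000295), or 1.58 and 1.12 with the normexp scalings. A second probe of Aldh18a1 was well above background on all 4 APL arrays and on 0 Control arrays, and was at least 7.68-fold higher in APL. In that bound, Control arrays count at the dimmest signal well above background, or at the signal of the probe where that is larger.

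Akr1b1, aldose reductase, reduces glucose to sorbitol, an osmolyte of the renal medulla. Its values were 0.284, 0.358, 0.331 and 0.914 in APL kidneys, against 0.0713, 0.102, 0.0571 and 0.0596 in Control kidneys. The groups did not overlap, and replicate 4 was the highest APL array. Its log2 fold change was 2.57 ± 0.40 (adjusted p = 0.00318), 1.90 and 3.24 within the slides, and 1.52 and 1.01 with the normexp scalings. It was the only Akr gene called higher.

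Hsd3b7, an enzyme of bile acid synthesis from cholesterol, had values of 3.11, 0.344, 0.954 and 0.476 in APL kidneys, against 0.227, 0.0494, 0.0386 and 0.0271 in Control kidneys. Replicate 1 was the highest array in both groups. It had a log2 fold change of 3.83 ± 0.86 (adjusted p = 0.0161). After normexp correction it was 2.15 with percentile scaling and 1.77 with quantile normalization, where the call was lost at an adjusted p of 0.0508.

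Dhrs7 and Dhrs7l1, whose windows shown next both lie on chromosome 6, moved in opposite directions. Dhrs7, a short-chain dehydrogenase of the endoplasmic reticulum, had values of 0.565, 0.728, 0.947 and 0.549 in APL kidneys, against 0.197, 0.0987, 0.0594 and 0.137 in Control kidneys, with no overlap. Its log2 fold change was 2.60 ± 0.39 (adjusted p = 0.00259), or 1.51 and 1.09 with the normexp scalings. Dhrs7l1 had values of 0.005, 0.0075, 0.177 and 0.005 in APL kidneys, against 15.8, 16.5, 12.6 and 15.6 in Control kidneys. The Control values lay close together, while 2 APL values were at the floor and only replicate 3 was well above background. Its fold change of -10.12 ± 1.09 (adjusted p = 0.000535), the lowest of all features tested, therefore rests on the floor. It was -8.77 with the floor at 0.02 and -5.31 and -5.56 with the normexp scalings, past the threshold in each.

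Upstream sequence is shown for this pair, which moved apart, for Aldh1a2, of the retinoic acid step, and for Akr7a3, a decrease measured above background on all arrays. The windows are the 250 bases before the annotated start, from RefSeq (rat build GRCr8), written 5′ to 3′ on the strand of the gene. They lie at chr8:80758391-80758640 (plus strand) for Aldh1a2, chr6:97083745-97083994 (minus) for Dhrs7, chr6:97047900-97048149 (minus) for Dhrs7l1 and chr5:156876471-156876720 (plus) for Akr7a3. Capitals mark matches, on either strand, to the TATA box letters TATAAA. They also mark the CCAAT box, spelled CCAAT, and the GC box, GGGCGG. The last motif searched is the core of the site of the hepatocyte nuclear factor HNF1, GTTAAT. No marked match overlaps another in these windows.
Aldh1a2: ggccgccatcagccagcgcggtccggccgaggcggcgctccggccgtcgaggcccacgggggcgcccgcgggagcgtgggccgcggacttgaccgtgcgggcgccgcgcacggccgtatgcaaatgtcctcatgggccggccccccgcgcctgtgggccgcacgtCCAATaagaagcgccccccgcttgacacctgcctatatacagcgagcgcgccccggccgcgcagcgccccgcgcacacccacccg
Dhrs7: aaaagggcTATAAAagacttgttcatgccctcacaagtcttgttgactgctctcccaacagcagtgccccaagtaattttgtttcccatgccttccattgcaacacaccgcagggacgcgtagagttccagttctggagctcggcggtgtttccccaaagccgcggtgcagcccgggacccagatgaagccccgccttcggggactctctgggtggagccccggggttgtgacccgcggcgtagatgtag
Dhrs7l1: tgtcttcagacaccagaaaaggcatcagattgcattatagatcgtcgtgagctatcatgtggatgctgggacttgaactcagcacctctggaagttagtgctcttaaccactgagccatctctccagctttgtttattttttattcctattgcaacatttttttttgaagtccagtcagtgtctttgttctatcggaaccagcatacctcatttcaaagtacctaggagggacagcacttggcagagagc
Akr7a3: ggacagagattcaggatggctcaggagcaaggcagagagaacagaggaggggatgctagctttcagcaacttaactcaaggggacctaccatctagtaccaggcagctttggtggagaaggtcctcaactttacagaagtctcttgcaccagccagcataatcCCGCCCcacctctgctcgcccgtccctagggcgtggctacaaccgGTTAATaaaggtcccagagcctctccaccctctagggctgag
The Aldh1a2 window is rich in G and C, at 77.2%, against 58% in Dhrs7, 43.2% in Dhrs7l1 and 55.6% in Akr7a3. Its CCAAT letters begin 85 bases before the start. In Akr7a3 the HNF1 letters begin 42 bases and the GC box letters 87 bases before the start, while the TATAAA of Dhrs7 begins 242 bases before it, and Dhrs7l1 has 0 matches. Windows were found for 46 of the 59 tested members. CCAAT occurred in 12 of the 24 windows of members called lower and in 35.5% of the 19005 windows of the RefSeq table, GGGCGG in 7 of 24 and 40.3%, TATAAA in 4 of 24 and 12.3%, and GTTAAT in 2 of 24 and 6.1%. These matches describe letters and not binding.

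**Figure D2:**
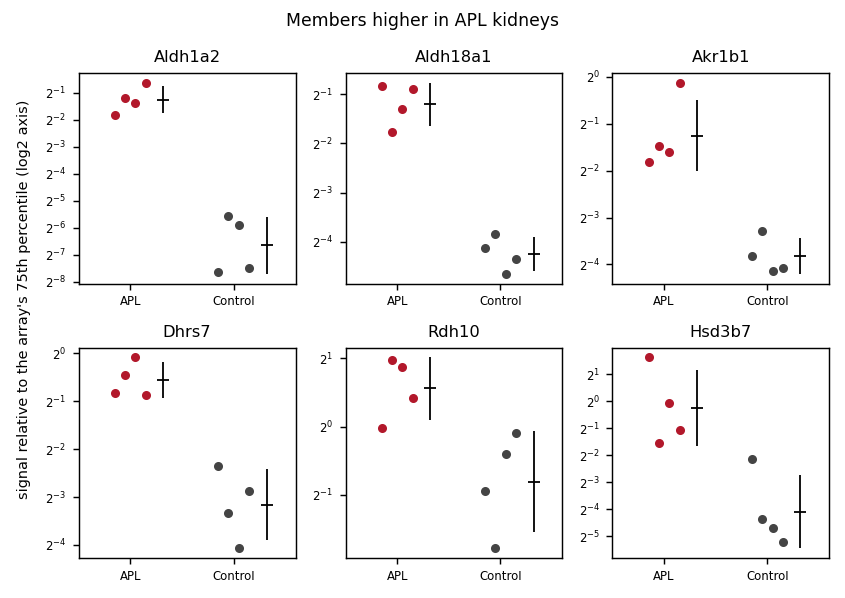
Relative signal (log2 axis, one axis per gene) of the 6 members called higher, with 1 point per array in the order of the replicate numbers; the dash and bar are the mean and SD of the log2 values (4 arrays per group). In each panel the 4 APL points lie above the 4 Control points, by the least in Rdh10.

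Of the 16 tested aldehyde dehydrogenases, 9 were called lower. Aldh8a1, an enzyme of the tryptophan breakdown pathway, had values of 0.196, 0.0933, 0.0614 and 0.0766 in APL kidneys, against 2.35, 0.935, 2.14 and 1.65 in Control kidneys (log2 fold change -4.12 ± 0.44, adjusted p = 0.000495). Aldh1l1, the cytosolic formyltetrahydrofolate dehydrogenase, had values of 0.844, 1.04, 0.321 and 1.36 in APL kidneys, against 8.73, 7.5, 11.6 and 7.44 in Control kidneys (-3.46 ± 0.44, adjusted p = 0.00119). Aldh6a1, which acts in valine breakdown, had values of 4.27, 2.63, 2.85 and 2.18 in APL kidneys, against 34.5, 29.4, 27.9 and 30.2 in Control kidneys (-3.40 ± 0.24, adjusted p = 7.76e-05). All of these groups were far apart, and the Control values of Aldh6a1 spread by an SD of 0.13 on the log2 scale. Aldh8a1 shrank to -2.36 and -2.45 with the normexp scalings and stayed called.

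Aldh2, the mitochondrial enzyme that clears acetaldehyde, had values of 3.24, 2.75, 2.07 and 2.59 in APL kidneys, against 16.3, 15.6, 15.8 and 10.6 in Control kidneys. Its log2 fold change was -2.45 ± 0.23 (adjusted p = 0.000309). Aldh1b1, another mitochondrial aldehyde dehydrogenase, had values of 0.327, 1.22, 0.204 and 0.956 in APL kidneys, against 3.78, 1.71, 4.84 and 1.87 in Control kidneys, a log2 fold change of -2.39 ± 0.64 (adjusted p = 0.0318). The Aldh1b1 call was lost without APL replicate 1 or 3 or Control replicate 1 or 3, without scaling, without a detection filter and in the replicate block, with adjusted p up to 0.105.

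The other 4 called lower were Aldh9a1 of carnitine synthesis (log2 fold change -2 ± 0.19), Aldh7a1 of lysine breakdown (-1.77 ± 0.19), Aldh4a1 (-1.72 ± 0.25 and, on a second probe, -2.39) and Aldh16a1 (-1.41 ± 0.34), which lost its call without Control replicate 1 or 2, in the replicate block (adjusted p = 0.0678) and without scaling (-0.77, adjusted p = 0.135). Aldh4a1 oxidises pyrroline-5-carboxylate, the product of Aldh18a1, to glutamate. Its values were 2.91, 2.08, 2.09 and 2.18 in APL kidneys, against 5.47, 6.7, 8.71 and 10.1 in Control kidneys (adjusted p = 0.00241). Thus the enzyme of proline synthesis was higher and that of proline breakdown lower in APL, each with no overlap between the groups.

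The remaining 5 Aldh genes were not called. Aldh1a1, like Aldh1a2 a maker of retinoic acid, had a log2 fold change of -1.24 ± 0.51 (adjusted p = 0.119), with values of 4.36, 2.61, 5.78 and 6.86 in APL kidneys, against 10.8, 14.2, 20.6 and 4.44 in Control kidneys. Control replicate 4 lay among the APL values, and without it Aldh1a1 was called lower. The log2 fold changes of Aldh3b1, Aldh3a2 (fatty aldehyde dehydrogenase), Aldh5a1 (succinic semialdehyde dehydrogenase) and Aldh3a1 ran from 0.70 to 1.38. Aldh5a1 was the one member whose probes differed in sign, at 0.72 ± 0.72 on the probe used (adjusted p = 0.499) and -0.67 on the other.

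Alcohol dehydrogenases were lower except Adh5. Adh1c, the class I enzyme, had values of 0.223, 0.121, 0.0521 and 0.487 in APL kidneys, against 3.09, 2.28, 4.87 and 1.37 in Control kidneys (log2 fold change -4.02 ± 0.70, adjusted p = 0.00517). With the normexp scalings Adh1c was at -2.27 and -2.48 and stayed called. Adh4, the class II enzyme, had values of 0.156, 0.0651, 0.0846 and 0.159 in APL kidneys, against 1.43, 0.625, 5.41 and 0.277 in Control kidneys (-3.31 ± 0.85, adjusted p = 0.0276). The Adh4 Control values spread widely, and its call was lost without APL replicate 2, 3 or 4 or Control replicate 1, with normexp and the 75th percentile and in the replicate block, with adjusted p up to 0.242.

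Adh6, which stands outside the rule for named decreases, was well above background on 1 APL array and had values of 0.005, 0.0301, 0.005 and 0.005 in APL kidneys, against 0.0585, 0.135, 0.106 and 0.264 in Control kidneys. Its log2 fold change of -3.96 ± 0.70 (adjusted p = 0.00567) shrank to -0.15 after normexp correction with percentile scaling (adjusted p = 0.89). Adh5, the formaldehyde-clearing class III enzyme, had values of 7, 7.63, 6.46 and 8.37 in APL kidneys, against 6.45, 10.3, 9.53 and 7.16 in Control kidneys. The Adh5 groups overlapped, and the log2 fold change was -0.16 ± 0.22 (adjusted p = 0.628).

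Aldo-keto reductases held the largest well measured decreases. Akr1c13, of the Akr1c group that reduces steroids and other ketones, had values of 0.104, 0.0936, 0.091 and 0.112 in APL kidneys, against 12.5, 12.7, 15.4 and 15.2 in Control kidneys. Replicates lay within an SD of 0.14 in APL and 0.16 in Control on the log2 scale, around a log2 fold change of -7.12 ± 0.18 (adjusted p = 4.24e-06), and every array was well above background. With the normexp scalings Akr1c13 shrank to -5.03 and -5.15 and stayed called. Akr7a3, aflatoxin aldehyde reductase, had values of 2.87, 1.42, 3.2 and 1.16 in APL kidneys, against 110.0, 149, 185 and 123 in Control kidneys. The Akr7a3 groups were 70.3-fold apart, a log2 fold change of -6.14 ± 0.38 (adjusted p = 4.51e-05) that ran from -6.37 to -5.50 over all alternatives run.

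Akr1c1 had values of 0.0435, 0.00523, 0.0307 and 0.0213 in APL kidneys, against 3.32, 1.6, 2.6 and 2.16 in Control kidneys. It was well above background on 3 APL arrays, and its log2 fold change of -6.90 ± 0.63 (adjusted p = 0.000246) was -3.03 and -3.20 with the normexp scalings. Akr1c12l1 had values of 0.269, 0.25, 0.302 and 0.127 in APL kidneys, against 9.87, 6.78, 4.96 and 7.05 in Control kidneys (-4.95 ± 0.34, adjusted p = 6.37e-05). Akr7a2, a reductase of succinic semialdehyde, had values of 1.14, 0.609, 0.457 and 1.03 in APL kidneys, against 9.42, 7.64, 7.86 and 7.32 in Control kidneys (-3.41 ± 0.32, adjusted p = 0.000289). These 3 genes kept their calls under every alternative that tested them. The Akr1c genes are close copies of each other, and binding of 1 transcript to the probe of another was not tested.

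Smaller decreases were called for Akr1b8 (log2 fold change -2.38 ± 0.62), Akr1a1, the general aldehyde reductase (-1.74 ± 0.22), Akr1e2 (-1.48 ± 0.22) and Akr1c19 (-1.34 ± 0.29). Akr1c19 was not called after normexp correction with percentile scaling (-0.26, adjusted p = 0.718) or without scaling (-0.71, adjusted p = 0.0897). Akr1b8 was the one called member whose groups overlapped, with an APL value of 0.715 in replicate 3 and a Control value of 0.685 in replicate 1, and it lost its call without APL replicate 1, 2 or 4 or Control replicate 2 or 3, after normexp correction with percentile scaling (-1.10, adjusted p = 0.187) and without scaling (adjusted p = 0.062). Akr1b10, outside the rule for named decreases, was well above background on 1 APL array and had values of 0.005, 0.00958, 0.0125 and 0.00908 in APL kidneys, against 0.213, 0.462, 0.275 and 0.0963 in Control kidneys. Its log2 fold change of -4.72 ± 0.50 (adjusted p = 0.000496) shrank to -0.45 after normexp correction with percentile scaling (adjusted p = 0.683). Akr1c15 was not called (-2.80 ± 1.13, adjusted p = 0.114), but was called lower without Control replicate 4.

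Among the Dhrs genes, Dhrs4, a peroxisomal carbonyl and retinaldehyde reductase, was lower beside Dhrs7l1. Its values were 1.2, 1.53, 1.38 and 1.29 in APL kidneys, against 7.16, 6.98, 4.72 and 5.6 in Control kidneys (log2 fold change -2.16 ± 0.21, adjusted p = 0.000337). The 5 others were not called, with log2 fold changes from -1.19 for Dhrs11 to 0.49 for Dhrs1. Dhrs3, which reduces retinaldehyde back to retinol, was among them at -0.65 ± 0.26 (adjusted p = 0.105), and was called lower with normexp and quantile normalization.

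Retinol dehydrogenases other than Rdh10 were lower or not called. Rdh16, a microsomal enzyme of retinol and steroids, had values of 0.912, 0.225, 0.288 and 0.421 in APL kidneys, against 2.45, 40.1, 22.2 and 6.7 in Control kidneys. Its Control values spread by an SD of 1.80 on the log2 scale, and all stood above the APL values, with a log2 fold change of -4.79 ± 0.88 (adjusted p = 0.0068) and -5.91 on a second probe. Rdh12, a retinaldehyde reductase, had values of 0.441, 0.499, 0.489 and 0.355 in APL kidneys, against 1.15, 1.01, 0.933 and 1.61 in Control kidneys. Its log2 fold change was -1.38 ± 0.24 (adjusted p = 0.00505), and the call was lost with normexp and the 75th percentile and without scaling, with adjusted p up to 0.143. Rdh11, Rdh8, Rdh13 and Rdh14 were not called, with log2 fold changes from -1.20 to 0.76. In Rdh11 all APL values lay above all Control values (0.76 ± 0.29, adjusted p = 0.0953).

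**Figure D3:**
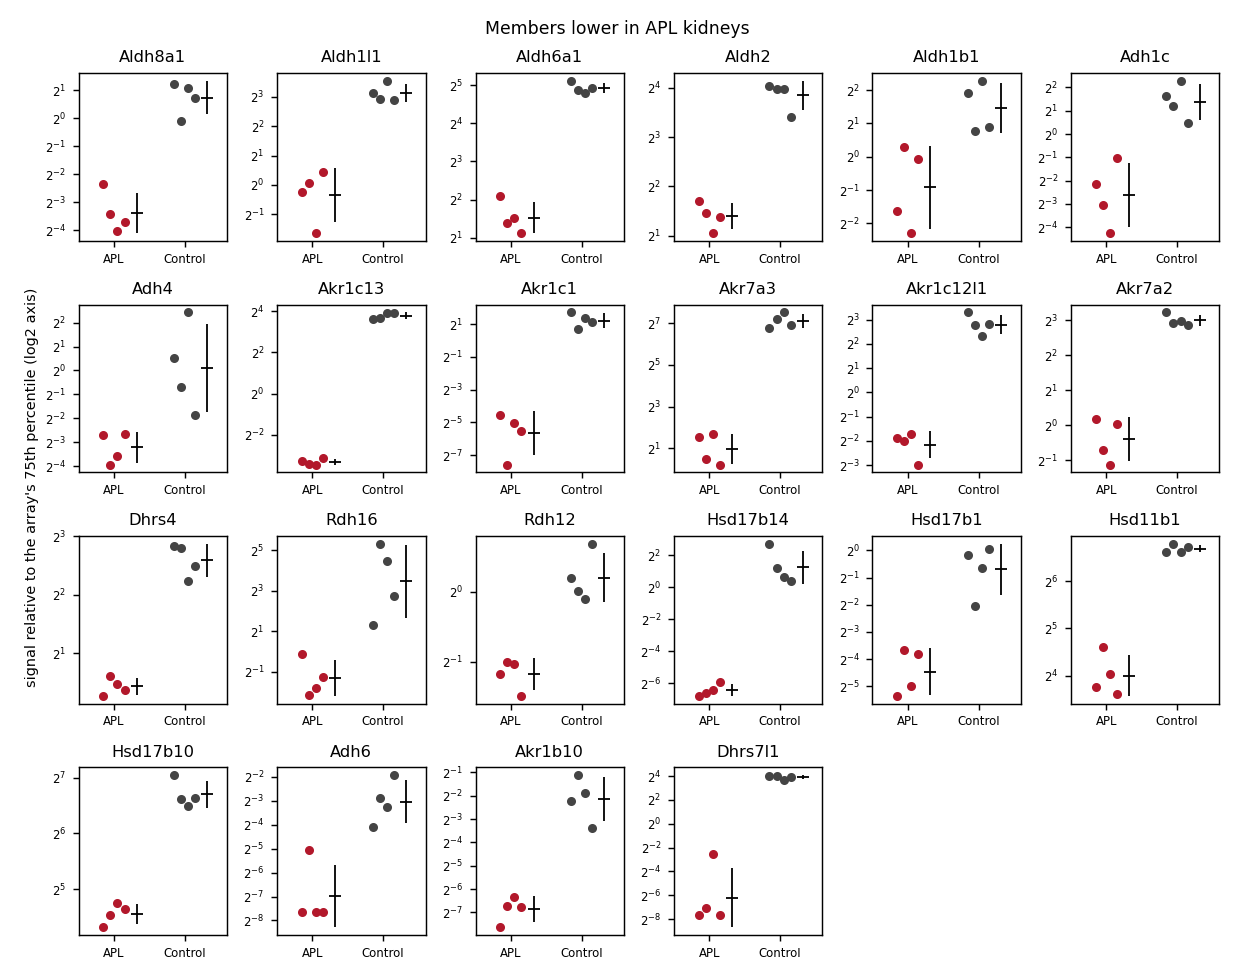
Relative signal (log2 axis, one axis per gene) of 22 members called lower, with 1 point per array; the dash and bar are the mean and SD of the log2 values (4 arrays per group). The 4 APL points lie below the 4 Control points in every panel, tightly in Akr1c13 and loosely in Adh4 and Rdh16; points at the floor of 0.005 have no order.

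Of the 12 hydroxysteroid dehydrogenases, 4 were called lower, Hsd3b7 was called higher and 7 were not called. Hsd17b14 had values of 0.00925, 0.0103, 0.012 and 0.0168 in APL kidneys, against 6.55, 2.33, 1.58 and 1.29 in Control kidneys, on a probe well above background on 2 APL arrays. Here the log2 fold change was -7.65 ± 0.50 (adjusted p = 5.52e-05), but a second probe, well above background on all arrays, gave -1.5; where only that probe passed the filter, at all 8 arrays above background, the call was lost (adjusted p = 0.175). The size of the Hsd17b14 decrease thus differed between its probes. Hsd17b1, which makes estradiol from estrone, had values of 0.0244, 0.079, 0.0313 and 0.0715 in APL kidneys, against 0.897, 0.241, 0.635 and 1.04 in Control kidneys (-3.76 ± 0.57, adjusted p = 0.00283). After normexp correction with percentile scaling it was -1.04 and not called (adjusted p = 0.364).

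Hsd11b1, which regenerates active glucocorticoid, had values of 13.5, 24.2, 16.3 and 12.3 in APL kidneys, against 98.6, 111, 98.9 and 105 in Control kidneys. Control values spread by an SD of only 0.08 on the log2 scale, and the log2 fold change was -2.69 ± 0.25 (adjusted p = 0.000253). Hsd17b10, a mitochondrial enzyme of isoleucine breakdown, had values of 19.9, 23.2, 26.8 and 24.9 in APL kidneys, against 132, 98.4, 90.4 and 99.6 in Control kidneys (-2.14 ± 0.20, adjusted p = 0.000304). Both kept their calls under all alternatives run.

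The Hsd genes not called had log2 fold changes from -1.45 for Hsd17b7, of cholesterol synthesis, to 1.25 for Hsd17b2, which inactivates estradiol and was well above background on 3 APL arrays and 1 Control array. Hsd17b11 (-0.94 ± 0.32, adjusted p = 0.0671), Hsd17b8 of mitochondrial fatty acid synthesis (-0.84 ± 0.33, adjusted p = 0.103) and Hsd3b1 (-0.71 ± 0.78, adjusted p = 0.539) were on the negative side. Hsd17b13 (-0.50 ± 0.30) and Hsd17b12, of long-chain fatty acid synthesis (-0.34 ± 0.47), differed less. Leaving out APL replicate 3 brought in Hsd17b11 as called lower, Control replicate 2 Hsd17b7 and Control replicate 3 Hsd17b8.

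Another 19 member genes did not pass the detection filter, and 12 of them were well above background on 0 arrays: Adh6a, Akr1b7, Akr1c14, Akr1c3, Akr1d1, Aldh1l2, Dhrs7c, Dhrs9, Hsd17b6, Hsd3b2, Hsd3b3 and Rdh7. Adh7 and Akr1c2 were each well above background on 0 APL arrays and 3 Control arrays. Aldh1a3, the remaining retinoic acid synthase, was so on 2 APL arrays and 0 Control arrays. Akr1c12, Dhrs2l1, Hsd17b3 and Hsd3b5 were well above background on 1 to 3 arrays in all. Without the filter Adh7 was called lower, and none of the 19 was called higher.

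Genes that take up, bind and sense retinoids were mixed. Of 16 tested genes of retinoid handling, 5 were called higher, 2 lower and 9 not called, with a median log2 fold change of 0.12, against 11.9% higher and 11.5% lower among all features. After normexp correction with percentile scaling 2 were higher and 1 lower, and in the replicate block 3 and 1. Stra6, the cell surface receptor that takes up retinol, had values of 1.28, 1.03, 1.93 and 0.895 in APL kidneys, against 0.0717, 0.103, 0.0674 and 0.0544 in Control kidneys (log2 fold change 4.09 ± 0.31, adjusted p = 0.000102). The Stra6 groups were apart without overlap, and its log2 fold change ran from 1.96 to 4.73 over the alternatives and stayed called. Bco1, which cleaves carotene to retinaldehyde (3.72 ± 0.54), Crabp2, a retinoic acid carrier (1.69 ± 0.51), and Rarg, a retinoic acid receptor (1.44 ± 0.33), were higher as well.

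The calls of Bco1 (adjusted p up to 0.0679), Crabp2 (up to 0.133) and Rarg (up to 0.0767) were lost after normexp correction with percentile scaling. Those of Rarg and Crabp2 were lost in the replicate block as well. Crabp2 also lost its call with the slide block, with normexp and quantile normalization, without a detection filter, and without APL replicate 2 or 4 or any 1 Control array. Rbp4, the plasma carrier of retinol, was the largest decrease of the list, with values of 0.0512, 0.00976, 0.005 and 0.005 in APL kidneys, against 1.33, 3.75, 5.64 and 8.35 in Control kidneys. It was well above background on 1 APL array, so its log2 fold change of -8.53 ± 0.86 rests on the floor and ran from -9.29 to -3.85 over the alternatives. Rlbp1 was the other one called lower (-0.89 ± 0.24), and lost its call without APL replicate 1, 3 or 4 or Control replicate 2, 3 or 4, with adjusted p up to 0.753 over all alternatives. Cyp26a1, which degrades retinoic acid, was not called (2.49 ± 1, adjusted p = 0.112), and neither was the receptor Rara (-0.16 ± 0.27, adjusted p = 0.691).

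**Figure D4:**
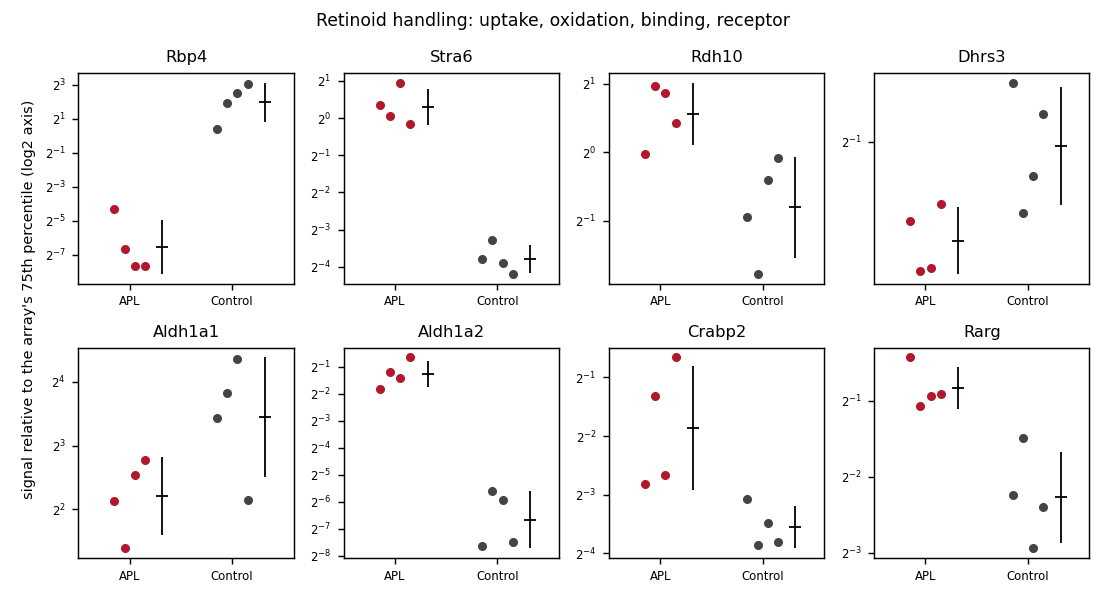
Relative signal (log2 axis, one axis per gene) of 8 genes of retinoid uptake, oxidation, reduction, binding and sensing, with 1 point per array; the dash and bar are the mean and SD of the log2 values (4 arrays per group). APL points lie above Control points for Stra6, Rdh10, Aldh1a2, Crabp2 and Rarg and below them for Rbp4, while those of Aldh1a1 and Dhrs3 overlap.

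Other carbonyl and aldehyde enzymes were also measured. Of 30 tested, 15 were called lower and 2 higher, with a median log2 fold change of -1.26. The shares over all features were 11.5% lower and 11.9% higher, with a median of -0.03. After normexp correction with percentile scaling 11 of the 30 were lower and 1 higher. The decreases named by size were those of Adhfe1 (-4.86 ± 0.68), Khk, ketohexokinase (-4.72 ± 0.26), Decr2 of peroxisomal fatty acid oxidation (-4.10 ± 0.34), Hagh of the glyoxalase pathway (-3.69 ± 0.20) and Ephx1, an epoxide hydrolase (-3.58 ± 0.51). Adhfe1 shrank to -1.51 and lost its call after normexp correction with percentile scaling (adjusted p = 0.181), while Khk ran from -4.85 to -4.08 over the alternatives. Cbr1, a carbonyl reductase, was higher, with values of 2.21, 1.31, 2.28 and 2.94 in APL kidneys, against 0.112, 0.0572, 0.192 and 0.00501 in Control kidneys (5.40 ± 1.04, adjusted p = 0.0084). The last Control value lay next to the floor, and the probe was well above background on 3 Control arrays. Its log2 fold change ran from 2.67 to 6.04 over the alternatives and stayed called. Ptgr1, a prostaglandin and alkenal reductase, was the other gene called higher (2.00 ± 0.61, adjusted p = 0.047), and its call was lost without any 1 APL array or Control replicate 3 or 4. The Ptgr1 call was also lost after normexp correction with percentile scaling, without a detection filter and in the replicate block, with adjusted p up to 0.102 over the alternatives. Xdh, the target of allopurinol, was not called (-0.21 ± 0.45, adjusted p = 0.757), nor was aldehyde oxidase Aox1 (-0.74 ± 1.47, adjusted p = 0.746).

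Among 15 tested genes of steroid handling, 4 were called higher and 1 lower, with a median of 1.03, where 23.5% of all features were called in either direction. After normexp correction with percentile scaling 2 were higher and 0 lower, and in the replicate block 1 and 1. Tsc22d3 (1.95 ± 0.21, adjusted p = 0.000513), Sgk1 (1.07 ± 0.21, adjusted p = 0.00962) and Fkbp5 (1.12 ± 0.31, adjusted p = 0.0342) are induced by glucocorticoids and were higher, as was Srd5a3 (2.55 ± 0.69). Per1, of the same list, was not called (1.03 ± 0.78, adjusted p = 0.376), and its groups overlapped. The estrogen receptor Esr1 was called lower, but was well above background on 1 APL array with 2 APL values at the floor, so its log2 fold change of -4.91 ± 0.95 rests on the floor and ran from -5.89 to -0.96 over the alternatives. The higher calls other than that of Tsc22d3 were lost in the replicate block, with adjusted p up to 0.209 over the alternatives. That of Fkbp5 was also lost with both normexp scalings and without any 1 APL array or Control replicate 2 or 4. Sgk1 also lost its call after normexp correction with percentile scaling. Srd5a3 also lost its call without a detection filter and without any 1 APL array or Control replicate 1 or 2. Esr1 was not called after normexp correction with percentile scaling (adjusted p = 0.457). The glucocorticoid receptor Nr3c1 was not called (0.34 ± 0.33, adjusted p = 0.491), and neither was H6pd, which supplies Hsd11b1 with its cofactor (-0.36 ± 0.29, adjusted p = 0.404).

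Background correction changed both sizes and calls, and normexp with percentile scaling left 5 members called higher and 23 lower. With normexp the increases of all 6 higher members were smaller, down to 0.96 for Rdh10. Over the alternatives, the higher members except Rdh10 moved by more than 1.5 times on the log2 scale. So did the named decreases of Aldh8a1, Adh1c, Adh4, Akr1c1, Rdh12, Hsd17b1, Hsd17b14, Adh6, Akr1b10 and Dhrs7l1. The other named decreases, among them Akr7a3, Aldh6a1, Aldh2, Dhrs4, Hsd11b1 and Hsd17b10, moved by less. Of the 30 members called lower, 20 kept their call in every other setting that tested them and with each array left out in turn, as did 4 of the 6 called higher: Aldh1a2, Aldh18a1, Akr1b1 and Dhrs7.

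**Figure D5:**
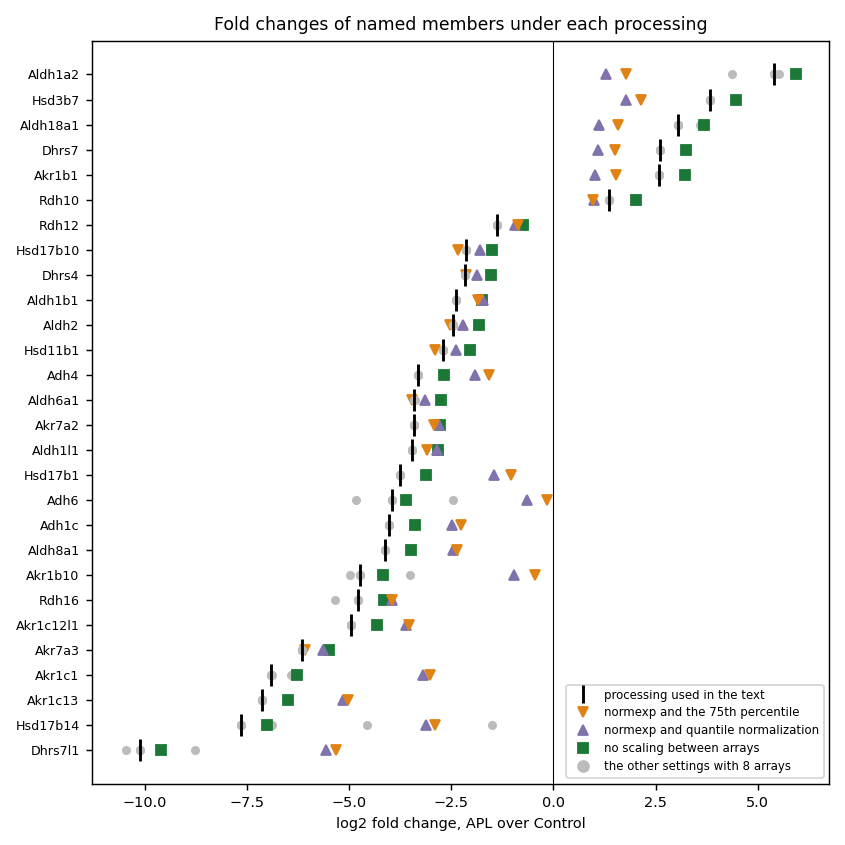
Log2 fold change, APL over Control (x axis), of 28 called members under each processing that uses all 8 arrays: black bars mark the values given in the text, coloured marks normexp scalings and unscaled arrays, and grey points the other settings. No member changes sign, and the widest shifts include those of Hsd17b14, Dhrs7l1, Akr1b10 and Adh6, which were near background in APL. The Hsd17b14 value of -1.5 is that of its second probe.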

How the data were processed

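RNA of 8 kidney samples, purified with a Qiagen column kit per the labels' protocols, was measured on single-colour Agilent arrays, 1 per sample. Images were read with Agilent Feature Extraction 10.5.1.1 (design 028282), per the file headers. The deposited scanner files give linear intensity for each spot, its local background, quality flags, and a processed signal from which the scanner software had subtracted background, per the file headers. The authors' own deposited values for all samples are log2 values: scaled to the 75th percentile of each array and centred on probe medians, 94% of the scanner values came within 0.01 of them. Their column medians ran from -0.136 to 0.0771, what makes the rest differ is unknown, and they entered as an alternative.

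Of 42877 non-control spots per array, 2 to 64 were non-uniform and left out, and spots of the same probe were averaged, giving 30367 probes. Signals were scaled by the 75th percentile of the array, floored at 0.005 and put on the log2 scale. Probes had to be well above background on at least 4 of 8 arrays (24339 were), and none was saturated. RefSeq's rat table (GRCr8) named 18643 probes by unversioned accession. Probe positions are not given, because the array header uses another build. Genes with more than 1 such probe took the probe of highest mean signal. limma 3.58.1 (lmFit, eBayes, R 4.3.3) compared APL with Control, with Benjamini-Hochberg adjustment over 21416 features, of which 65, with 0 members among them, lacked an array value. Errors after ± are moderated standard errors unless SD is named. Exact permutation tests served for single values, and the fit was tested on simulated data.

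Members and gene lists were chosen with earlier results of these data known. One gene counted in a related list is not reported here. The genes named with values were every member called higher, up to 5 of the largest called decreases per family among genes well above background on at least 2 APL arrays, members with probes of opposite sign, and up to 5 related genes in each direction per list. The 3 members under that detection limit, Dhrs7l1, Akr1b10 and Adh6, and the examples not called were added after their values were seen. Alternatives were normexp (offset 50, on median spot and background signals, since mean signals were not used here) with percentile or quantile scaling, no scaling, a floor of 0.02, no or a stricter detection filter, the median over probes, the authors' table, slide and replicate blocks, and each array left out in turn.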

Additional observations from a re-analysis of the deposited data

Results flagged for a closer look

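In 58 sets of 4 replicates (29 named members in 2 groups), 3 had an array whose gap to its nearest neighbour exceeded Dixon's critical share of the range; chance alone marks about 1 in 20 such sets. The Control replicate 4 value of Aldh2 was 3.40 on the log2 scale of relative signal, below the other Control arrays at 3.96 to 4.03. The APL replicate 2 value of Adh6 was -5.05, while the other 3 APL arrays were at the floor of -7.64. The APL replicate 3 value of Dhrs7l1 was -2.50, above the other APL arrays at -7.64 to -7.06.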

How the results depend on the processing

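No log2 fold change of the 29 named members turned sign under any alternative. Normexp with the 75th percentile gave 1040 features called higher and 973 lower, against 2554 and 2472, and a median of -0.86 over the members, -0.95 in Adh (1 called lower), -1.77 in Akr and -0.54 in Hsd. The Dhrs and Rdh medians turned to 0.10 and 0.38, where the median of all features was 0.36, and Rdh had 0 genes called higher and 1 lower. Normexp with quantile normalization gave medians of -0.77 over the members, -1.35 in Aldh, -1.28 in Adh, -1.51 in Akr, -0.29 in Dhrs and -0.66 in Hsd, which had 0 called higher. Without scaling, 5883 features were called higher and 1143 lower, and 10 members higher. The medians were then -0.77 over the members, -0.92 in Aldh, -2.54 in Akr and -0.25 in Hsd, and reversed to 0.04 in Dhrs (2 higher) and 0.30 in Rdh (3 higher, 1 lower), where that of all features was 0.60. Without a detection filter, which adds dim genes, medians were -0.89 over the members, -1.32 in Aldh, -2.06 in Akr, -0.32 in Dhrs and -0.71 in Hsd, with 0 Rdh genes higher. Genes above background on all 8 arrays gave 1 Aldh gene higher, 1 Dhrs gene lower and an Akr median of -2.38, since fewer genes were tested, and a floor of 0.02 an Adh median of -2.89. Where the construction of the alternative does not show it, the cause was not tested.

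Deviations of same-numbered APL and Control samples correlated at -0.02 to 0.05. The best partner was the same number for APL replicates 1, 2 and 3, and Control replicate 1 for APL replicate 4. Correlations this small cannot settle whether the numbers pair samples. With the replicate block, 1642 features were called higher and 1616 lower, 5 members higher and 27 lower, and 0 Rdh genes higher. Leaving out 1 array at a time gave 1606 to 2204 features higher (1623 without APL replicate 2, 1606 without APL replicate 4) and medians of -1.67 to -1.34 over the members, -3.70 to -2.77 in Akr and -1.09 to -0.74 in Hsd. Rdh then had 0 to 1 genes called higher. Dim signal limits Dhrs7l1, Akr1b10, Adh6, Aldh1a2 and Hsd17b14, which were near background in 1 group.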
